A study of Mus musculus with 10 samples.

Results

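The mitochondrial genome of the mouse carries 37 genes, and all 37 (13 for proteins, 2 for ribosomal RNAs and 22 for transfer RNAs) were found among the 57185 genes with a value in the count table, as the genes whose symbol starts with mt-. Bulk RNA-seq had been run on the apical part of the ventricle of 10 male mice aged 16 weeks, 5 labelled MLPKO and 5 labelled cRADΔ/Δ-MLPKO, and each mouse was 1 library. Every mouse lacked muscle LIM protein (the product of Csrp3), which gives dilated cardiomyopathy, carried floxed alleles of RAD, the product of Rrad that holds back the cardiac L-type calcium channel, and received 100 mg/kg tamoxifen at 10 weeks of age, with the hearts labelled as taken 1 month later (the labelled ages of 10 and 16 weeks lie farther apart than that). Only the cRADΔ/Δ-MLPKO mice also carried the MYH6-MerCreMer transgene, a tamoxifen-activated Cre recombinase driven by a promoter of cardiomyocytes, so loss of RAD and presence of Cre cannot be told apart. No heart with muscle LIM protein was sequenced. The comparison asks how each transcript made inside the mitochondrion differed between hearts lacking muscle LIM protein, with and without RAD in their cardiomyocytes. The paper reports that pumping function was restored in cRADΔ/Δ-MLPKO mice and stayed low in MLPKO mice. Heart function thus differed together with genotype, and its part in the differences below was not tested.

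The circular mitochondrial genome is copied from both strands into long RNAs that span almost its whole length, by the RNA polymerase POLRMT with the factors TFAM and TFB2M. The transfer RNAs lie between most of the other genes, and cutting them out releases the messenger and ribosomal RNAs, which then receive short poly(A) tails. The proteins are core subunits of the respiratory chain: the Nd genes belong to complex I, Cytb to complex III, Co1 to Co3 to complex IV and Atp6 and Atp8 to complex V, the ATP synthase. The many mitochondria of the heart make these some of its most abundant transcripts. Libraries were made from polyadenylated RNA, so the levels of transfer and ribosomal RNAs given here are those of the part that such a library holds.

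Part of these genes has a nearly identical second copy in the nuclear genome, which limits what can be read from their counts. In GRCm39, the build of the files, bases 6390 to 11042 of the mitochondrial genome (16299 bases in all) matched the minus strand of chromosome 1 from 24650616 to 24655269 at 99.936% identity over 4654 aligned bases. This stretch held 11 genes in full, the 6 protein genes mt-Co2, mt-Atp8, mt-Atp6, mt-Co3, mt-Nd3 and mt-Nd4l and 5 transfer RNA genes, together with 31.3% of mt-Co1 and 63.6% of mt-Nd4. The next longest match, on chromosome 2, had 97.362% identity. The chromosome 1 copy differed at 3 places, the substitutions A6393T in mt-Co1 and T9461C in mt-Nd3 (the mitochondrial base first, positions counted from 1 on the mitochondrial genome) and 1 additional A in mt-Tr. The sequences at the 3 places show how little separates a read of one origin from a read of the other; capitals mark the differing base, and the mitochondrial line of the last pair has none because the base is missing there.

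mt-Co1, chrM:6390-6423: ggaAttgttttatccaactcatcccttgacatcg
chromosome 1 copy, chr1:24655236-24655269, minus strand: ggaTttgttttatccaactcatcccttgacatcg
mt-Nd3, chrM:9431-9491: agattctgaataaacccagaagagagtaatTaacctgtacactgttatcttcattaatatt
chromosome 1 copy, chr1:24652168-24652228, minus strand: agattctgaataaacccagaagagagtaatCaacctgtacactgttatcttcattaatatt
mt-Tr, chrM:9795-9854: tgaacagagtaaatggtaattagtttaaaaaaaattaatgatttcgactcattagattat
chromosome 1 copy, chr1:24651804-24651864, minus strand: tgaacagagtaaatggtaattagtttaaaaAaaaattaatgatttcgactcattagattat

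The whole of mt-Atp8, a small membrane subunit of the ATP synthase, was the same in both places. It is printed because its counts varied most between mice among the protein genes, and carries no capitals since no base differed.

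mt-Atp8, chrM:7766-7969, and chr1:24653690-24653893, minus strand: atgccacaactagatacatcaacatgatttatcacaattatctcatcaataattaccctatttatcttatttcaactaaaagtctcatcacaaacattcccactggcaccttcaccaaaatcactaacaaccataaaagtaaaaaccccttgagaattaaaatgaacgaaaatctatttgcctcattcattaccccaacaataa

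Of the 22 transfer RNA genes, 4 had enough counts for the test, and all 4 lie on the strand opposite to most genes. Their sequences are given 5′ to 3′ with the anticodon in capitals.

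mt-Tn, asparagine, chrM:5089-5159, minus strand: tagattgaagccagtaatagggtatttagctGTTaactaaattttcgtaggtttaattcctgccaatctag
mt-Tc, cysteine, chrM:5192-5257, minus strand: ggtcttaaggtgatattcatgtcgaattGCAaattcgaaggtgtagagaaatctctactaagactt
mt-Te, glutamic acid, chrM:14071-14139, minus strand: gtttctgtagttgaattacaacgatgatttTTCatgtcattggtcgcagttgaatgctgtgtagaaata
mt-Tp, proline, chrM:15356-15422, minus strand: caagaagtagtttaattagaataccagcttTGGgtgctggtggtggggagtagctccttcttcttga

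Library totals ran from 33457406 to 49965101 counts. Rrad did not separate the groups: normalized levels were 140 to 282 CPM (counts scaled to a common library total) in MLPKO and 135 to 202 CPM in cRADΔ/Δ-MLPKO (log2 fold change −0.38 ± 0.20 SE, edgeR adjusted p = 0.290). Csrp3 kept 1009 to 3261 CPM in MLPKO and 691 to 1177 CPM in cRADΔ/Δ-MLPKO, although both carry its knockout. Counts over a whole gene also hold reads outside a deleted part, and the deleted exons are not given in the sources used here, so neither gene checks the labels and the groups are named as labelled. Cardiomyocyte genes were abundant in every library, with a summed level of 95185 to 108584 CPM over 14 markers in MLPKO and 78205 to 94778 CPM in cRADΔ/Δ-MLPKO.

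Mitochondrially encoded genes took a larger share of the library in all 5 cRADΔ/Δ-MLPKO mice than in any MLPKO mouse. The 37 genes together held 18.5, 15.8, 19.2, 21.2 and 17.0% of all counts in MLPKO mice 1 to 5 and 22.2, 22.4, 21.5, 22.6 and 21.4% in cRADΔ/Δ-MLPKO mice 1 to 5. The groups did not overlap, although the highest MLPKO mouse, mouse 4, stood only just below the lowest cRADΔ/Δ-MLPKO mouse. The means were 18.3% ± 2.09 (SD, n = 5) and 22.02% ± 0.552 (SD, n = 5), a ratio of 1.20, and the MLPKO mice were also the more widely spread. When the 10 most abundant nuclear genes were left out of the total, the ratio was 1.18 and the groups overlapped (18.4 to 24.3% against 24.1 to 25.4%). They also overlapped, at a ratio of 1.18, when the share was taken for the 5 protein genes with no part in the chromosome 1 copy (7.96 to 10.6% against 10.2 to 11.4%).

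**Figure D1:**
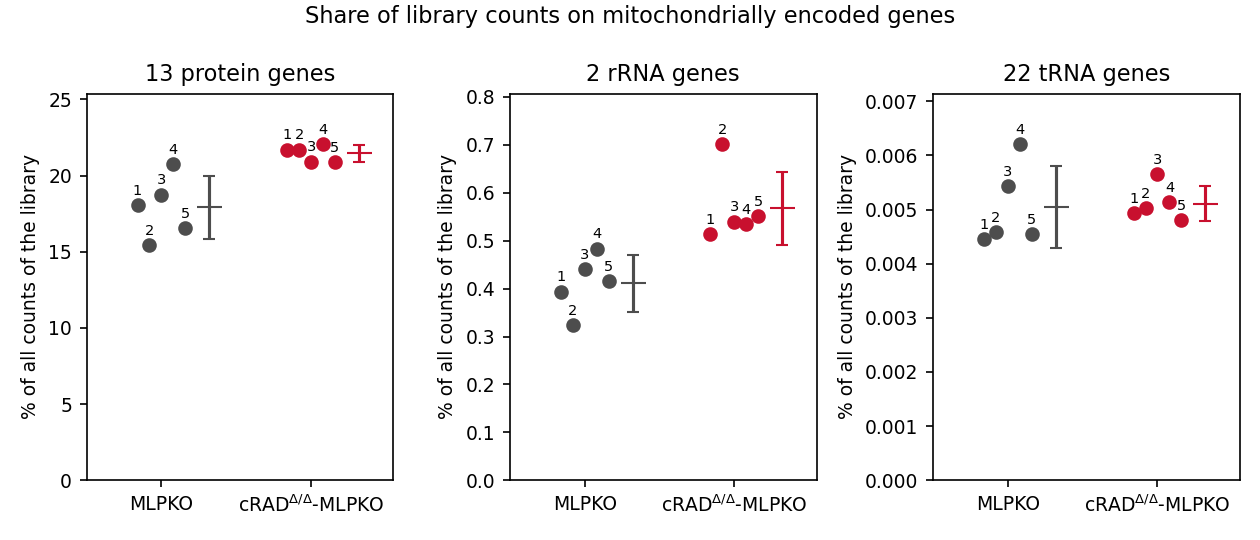
Share of all counts of each library (%, linear axis from 0) on the 13 protein, 2 rRNA and 22 tRNA genes of the mitochondrial genome, 1 point per mouse with the mouse number above it, and the mean ± SD of 5 mice to its right. The protein and rRNA shares of the 5 cRADΔ/Δ-MLPKO mice lie above those of all 5 MLPKO mice, while the tRNA shares overlap.

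Protein genes supplied nearly all of these counts. Their share of the library averaged 17.9% ± 2.04 (SD, n = 5) for MLPKO against 21.5% ± 0.536 (SD, n = 5) for cRADΔ/Δ-MLPKO, with no overlap. The ribosomal RNAs, mt-Rnr1 of the small and mt-Rnr2 of the large mitochondrial ribosomal subunit, held 0.411% ± 0.0592 (SD, n = 5) and 0.568% ± 0.0761 (SD, n = 5), again with no overlap. Of the mitochondrial counts they held 2.24 against 2.58% on average, and here the groups overlapped (2.05 to 2.45% against 2.31 to 3.13%). The 22 transfer RNAs held 0.00505 and 0.00511% of the library, and their groups overlapped. mt-Co1, the catalytic core of cytochrome c oxidase, was the most abundant of all genes in each of the 10 libraries and held on its own 6.92% ± 0.904 (SD, n = 5) of all counts for MLPKO against 8.56% ± 0.234 (SD, n = 5) for cRADΔ/Δ-MLPKO.

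Some other measures of the tissue differed between the groups too. The summed level of the 14 cardiomyocyte markers was lower in all 5 cRADΔ/Δ-MLPKO mice (1 of 14 passed the edgeR test as lower, where 1.8% of all genes did). Myh6, the most abundant of them, alone had a mean of 36497 CPM for MLPKO and 29888 CPM for cRADΔ/Δ-MLPKO. The log2 fold changes of the 14 ran from −0.57 to 0.38 (median −0.18), with 3 above 0. The summed level of 9 endothelial markers was higher, 1278 to 1429 CPM against 1033 to 1210 CPM (1 of 9 passed as higher, where 0.944% of all genes did). Over 10 macrophage markers the ranges overlapped, 191 to 340 CPM against 154 to 220 CPM, with none passing the edgeR test. All 10 had a log2 fold change above 0, from 0.37 to 0.88 (median 0.46). An unadjusted p under 0.05 in edgeR was reached by 9 of 10, where 21.6% of all genes did. Over 7 markers of smooth muscle and pericytes the sum was 656 to 880 CPM against 496 to 646 CPM. Of the 6 tested, 2 passed as higher, where 0.944% of all genes did. Their log2 fold changes were mixed, from −2.17 to 1.24 (median 0.11), with 4 of 6 above 0. The sum over 9 atrial markers was also higher in all 5 cRADΔ/Δ-MLPKO mice, 65.0 to 96.5 CPM against 52.3 to 63.0 CPM, with none of the 7 tested passing. DESeq2 called as higher 4 of 9 endothelial, 4 of 10 macrophage, 2 of 6 smooth muscle and pericyte and 2 of 7 atrial markers (3.81% of all genes). It called 3 of 14 cardiomyocyte markers as lower (5.84% of all genes). None of these markers was at 0. Rn18s-rs5, a nuclear ribosomal RNA gene and so a sign of leftover RNA without a poly(A) tail, held 1.90 to 3.70% of the counts in MLPKO and 1.07 to 3.89% in cRADΔ/Δ-MLPKO. The part of these in the mitochondrial share was not tested, and in tissue samples like these a changed number of cardiomyocytes, more mitochondria per cell and more RNA per mitochondrion cannot be told apart.

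Gene by gene, levels were compared as CPM after TMM scaling, which sets libraries to a common level from the bulk of genes, with the quasi-likelihood test of edgeR over the 13452 genes that had more than 10 counts in at least 6 mice. Of the 37 genes, 19 passed this filter, all 13 protein and both ribosomal RNA genes and 4 transfer RNA genes. None of the 19 reached an adjusted p under 0.05, where 2.74% of all genes tested did. At an unadjusted p under 0.05 there were 5 of 19, all higher in cRADΔ/Δ-MLPKO (21.6% of all genes, 10.1% as higher), and DESeq2, the tool of the study, called the same 5 genes (9.65% of all genes called, 3.81% as higher). The log2 fold change was above 0 for 16 of 19 genes, against 52.1% of all genes, and its median was 0.15 against 0.01 over all genes.

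Those 5 genes were mt-Rnr1, mt-Rnr2, mt-Nd1, mt-Nd2 and mt-Co1, which make up the first stretch of the heavy-strand transcript. mt-Rnr2 had 2768, 2368, 3090, 3380 and 3052 CPM in MLPKO mice 1 to 5 and 3527, 5000, 3601, 3886 and 3529 CPM in cRADΔ/Δ-MLPKO mice 1 to 5. It was the single one of the 19 genes whose groups did not overlap, as was so for 6.61% of all genes tested and for 2.64% with the higher values in cRADΔ/Δ-MLPKO, and mouse 2 of cRADΔ/Δ-MLPKO stood above its group. The log2 fold change was 0.42 ± 0.12 (SE), with an edgeR adjusted p = 0.0767 and a DESeq2 adjusted p = 0.0150. mt-Rnr1 measured 1291 ± 176 CPM (SD, n = 5) against 1712 ± 273 CPM (SD, n = 5), a log2 fold change of 0.41 ± 0.12 (SE; edgeR adjusted p = 0.0841, DESeq2 adjusted p = 0.0209). The ratio of mt-Rnr2 to mt-Rnr1 counts was 2.27 ± 0.117 (SD, n = 5) for MLPKO against 2.30 ± 0.321 (SD, n = 5) for cRADΔ/Δ-MLPKO.

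mt-Nd2, a membrane subunit of complex I, had 16961, 15130, 16230, 19550 and 16123 CPM in MLPKO mice 1 to 5 and 22179, 21374, 19298, 20397 and 19482 CPM in cRADΔ/Δ-MLPKO mice 1 to 5. Only MLPKO mouse 4 reached into the range of the other group. Its log2 fold change was 0.29 ± 0.08 (SE; edgeR adjusted p = 0.0766, DESeq2 adjusted p = 0.0086). mt-Nd1, another membrane subunit of complex I, measured 19806 ± 2438 CPM (SD, n = 5) and 24145 ± 945 CPM (SD, n = 5), a log2 fold change of 0.29 ± 0.09 (SE; edgeR adjusted p = 0.0978, DESeq2 adjusted p = 0.0201). For mt-Co1 the values were 69666, 62247, 73881, 82162 and 67146 CPM in MLPKO mice 1 to 5 and 82889, 86919, 82004, 87817 and 83660 CPM in cRADΔ/Δ-MLPKO mice 1 to 5. MLPKO mouse 4 again overlapped the other group, and the log2 fold change was 0.25 ± 0.09 (SE; edgeR adjusted p = 0.118, DESeq2 adjusted p = 0.0201). Without MLPKO mouse 4, edgeR called 4 of the 19 genes (mt-Rnr1, mt-Rnr2, mt-Nd1 and mt-Nd2), and the share of all genes called in that fit is not given here.

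The genes farther along the heavy strand had smaller log2 fold changes, but a trend along the strand was not tested. mt-Nd4 had a log2 fold change of 0.16 ± 0.08 (SE; edgeR adjusted p = 0.273) and mt-Cytb, the single mitochondrially encoded subunit of complex III, 0.15 ± 0.08 (SE; edgeR adjusted p = 0.332). mt-Nd5, the last complex I gene on this strand, had 22390, 19251, 22343, 25685 and 22953 CPM in MLPKO mice 1 to 5 and 24926, 23647, 19519, 25540 and 23232 CPM in cRADΔ/Δ-MLPKO mice 1 to 5. These ranges overlapped over nearly their whole width, and the log2 fold change was 0.05 ± 0.10 (SE; edgeR adjusted p = 0.801). mt-Nd6 is the one protein gene on the light strand and its 3′ end overlaps that of mt-Nd5. Its values, 5157 ± 453 CPM (SD, n = 5) and 5619 ± 425 CPM (SD, n = 5), gave a log2 fold change of 0.12 ± 0.08 (SE; edgeR adjusted p = 0.410). Whether the counting used the strand is not given in the sources used here, so reads of mt-Nd6 and of the heavy-strand RNA that runs opposite to it cannot be told apart; the ratio of mt-Nd6 to mt-Nd5 counts was 0.229 ± 0.00540 (SD, n = 5) for MLPKO against 0.241 ± 0.00891 (SD, n = 5) for cRADΔ/Δ-MLPKO.

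**Figure D2:**
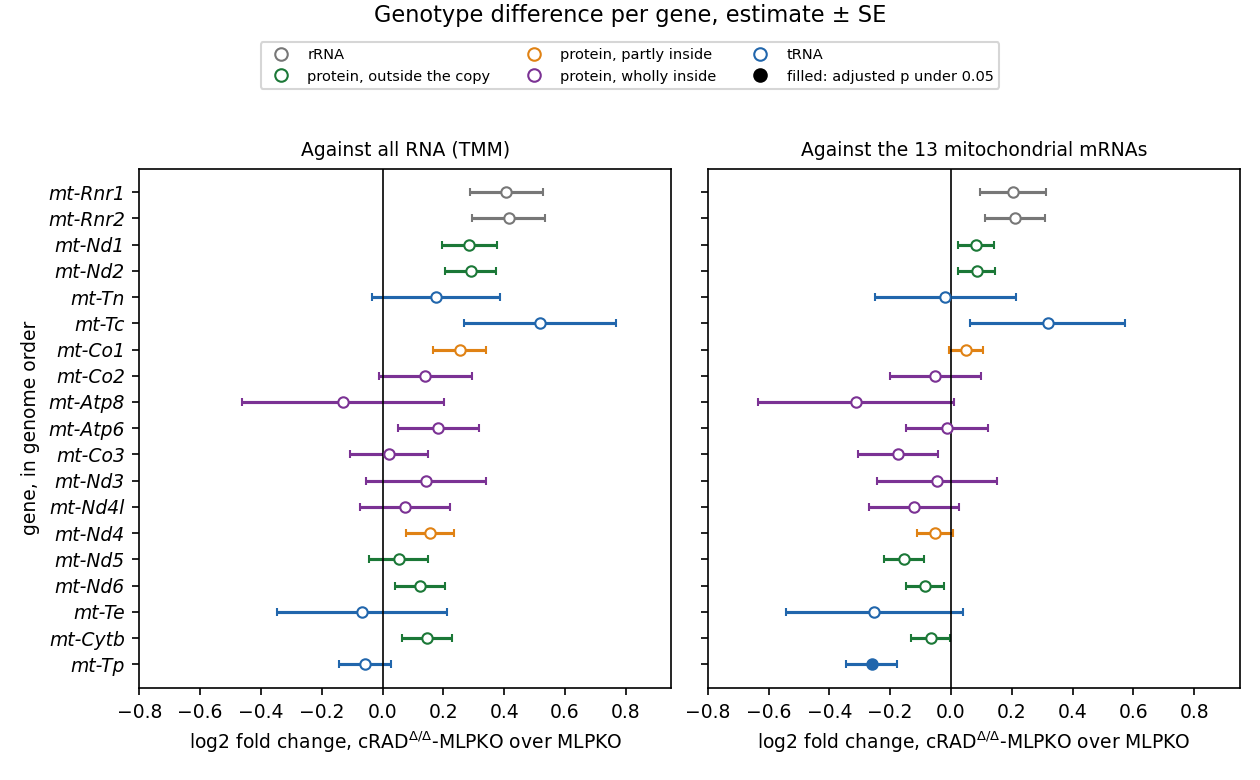
Log2 fold change of cRADΔ/Δ-MLPKO over MLPKO ± SE (edgeR, 5 mice per group) for the 19 genes tested, in genome order from top to bottom, relative to all RNA (left) and to the summed counts of the 13 mitochondrial protein genes (right); colours give the class of gene and its place relative to the chromosome 1 copy. No gene on the left passes an adjusted p under 0.05; on the right mt-Tp alone does, at −0.26.

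A second fit asked whether the make-up of the mitochondrial transcripts differed, by taking the summed counts of the 13 protein genes of each mouse as its library size. In it 1 of the 19 genes had an adjusted p under 0.05, where 19.4% of all genes did (18.8% as lower, since the mitochondrial total itself was higher), and 2 of 19 had an unadjusted p under 0.05, where 37.4% of all genes did. The called gene was mt-Tp, with 0.0230, 0.0282, 0.0272, 0.0281 and 0.0255% of the mitochondrial protein gene counts in MLPKO mice 1 to 5 and 0.0215, 0.0216, 0.0248, 0.0213 and 0.0210% in cRADΔ/Δ-MLPKO mice 1 to 5. Its groups overlapped through MLPKO mouse 1 and cRADΔ/Δ-MLPKO mouse 3, the log2 fold change was −0.26 ± 0.08 (SE; edgeR adjusted p = 0.0450), and the call was lost in several other settings, among them those without MLPKO mouse 2, 3 or 5 and without cRADΔ/Δ-MLPKO mouse 1, 2, 4 or 5.

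As shares of the mitochondrial protein gene counts, 3 of the 19 genes did not overlap between groups, not far from the 11.2% of all genes tested that did not. None of the 3 was called in the second fit, and shares of a fixed total cannot all move one way. mt-Nd5 held 12.2, 11.8, 12.1, 12.2 and 12.9% in MLPKO mice 1 to 5 and 11.4, 10.8, 9.91, 11.6 and 11.3% in cRADΔ/Δ-MLPKO mice 1 to 5. It was thus lower in every cRADΔ/Δ-MLPKO mouse, with a relative log2 fold change of −0.16 ± 0.07 (SE; edgeR adjusted p = 0.105). mt-Nd6 held 2.81% ± 0.0611 (SD, n = 5) and 2.65% ± 0.0831 (SD, n = 5), a relative log2 fold change of −0.09 ± 0.06 (SE; edgeR adjusted p = 0.342). mt-Nd1 went the other way, with 10.7% ± 0.410 (SD, n = 5) and 11.4% ± 0.229 (SD, n = 5), a relative log2 fold change of 0.08 ± 0.06 (SE; edgeR adjusted p = 0.327). Seen by complex, the shares overlapped throughout: complex I genes held 44.5 against 43.9%, mt-Cytb 16.6 against 15.8%, complex IV genes 38.8 against 40.2% and complex V genes 0.0965 against 0.0948%.

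Counts per length were far lower inside the stretch with the chromosome 1 copy than outside it, in both groups. Per kilobase of gene, the mean over the 10 mice of the 5 protein genes wholly outside was 10381 to 28017 CPM (median 17989 CPM, mt-Nd2), with mt-Nd6 lowest and mt-Cytb highest. The 6 protein genes wholly inside had 38.0 to 341 CPM per kilobase (median 256 CPM), from mt-Atp8 at the bottom to mt-Co2 at the top. The ratio of the medians was 70.2, and even the lowest gene outside stood 30.4 times above the highest gene inside. mt-Co1 and mt-Nd4, which reach partly into the stretch, had 50381 and 13337 CPM per kilobase, and the ribosomal RNAs 1572 (mt-Rnr1) and 2162 (mt-Rnr2).

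**Figure D3:**
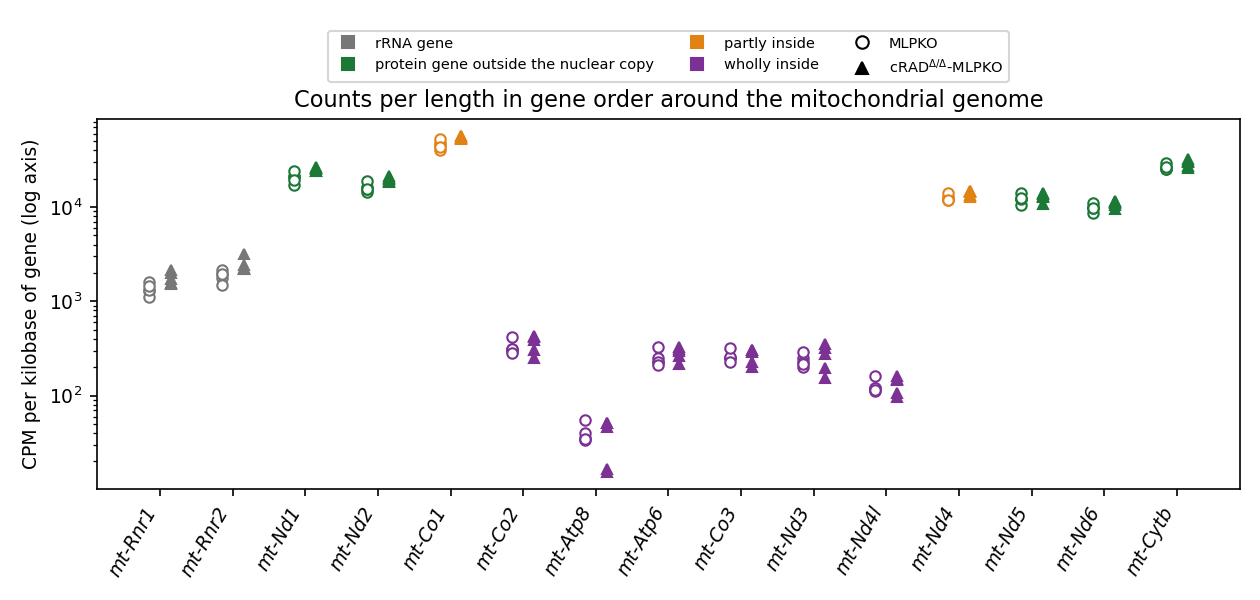
Normalized CPM per kilobase of gene (log axis) for the 2 rRNA and 13 protein genes in their order around the mitochondrial genome, 1 open circle per MLPKO mouse and 1 filled triangle per cRADΔ/Δ-MLPKO mouse; colours mark genes outside, partly inside and wholly inside the stretch copied on chromosome 1. The 6 genes wholly inside form a trough, 38.0 to 341 CPM per kilobase on average, while no protein gene outside averages under 10381.

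How much of a gene occurs unchanged in nuclear DNA was measured next. For mt-Co2, mt-Atp8, mt-Atp6, mt-Co3 and mt-Nd4l, 100% of all 100-base windows occurred unchanged in the nuclear genome, and for mt-Nd3 98.8%. The figure was 60.8% for mt-Nd4, 30.8% for mt-Co1, 3.19% for mt-Nd2, 1.21% for mt-Rnr2 and 0% for mt-Rnr1, mt-Nd1, mt-Nd5, mt-Nd6 and mt-Cytb. Apart from the 6 genes wholly inside, counts per length did not follow this share: mt-Co1 was the highest per kilobase of all, and mt-Nd4 lay above mt-Nd5 and mt-Nd6. A read from a stretch with 2 equal matches has no single place of origin. The study's aligner was STAR and its counter featureCounts, and how reads with several matches were counted is not given in the sources used here; its part in the low counts was not tested.

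The pseudogenes annotated on the chromosome 1 copy had counts as well, of the same order as those of the mitochondrial genes they mirror. mt-Co2 counts were 0.756 to 1.13 times those of its copy Gm28661 over the 10 mice, mt-Atp6 counts 0.740 to 0.898 times those of Atp6-ps, and mt-Co3 counts 1.20 to 1.60 times those of Gm28437. The ratios were wider for the small genes, 1.32 to 2.50 for mt-Nd4l over Gm10222 and 3.36 to 6.23 for mt-Nd3 over Gm28438. Where the mitochondrial gene reaches beyond the copied stretch, it far exceeded its copy, 478 to 680 times for mt-Co1 over Gm29216 and 138 to 201 times for mt-Nd4 over Gm28439. Reads of either place cannot be told apart here, so the counts of these pseudogenes do not show that chromosome 1 is transcribed. With predicted genes kept in the fit, none of these 7 copies had an edgeR adjusted p under 0.05, and their log2 fold changes were 0.10 (Gm28437) to 0.36 (Gm29216).

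Among the genes inside the copied stretch, 2 cRADΔ/Δ-MLPKO mice stood apart from the other three. mt-Atp8 had 6.87, 7.22, 8.19, 11.1 and 7.10 CPM in MLPKO mice 1 to 5 and 3.14, 3.38, 9.53, 10.4 and 10.5 CPM in cRADΔ/Δ-MLPKO mice 1 to 5. Mice 1 and 2 were below every other mouse and the other three were close to MLPKO mouse 4, the highest of its group. The log2 fold change was −0.13 ± 0.33 (SE; edgeR adjusted p = 0.863), and it was 0.32 without these 2 mice.

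mt-Nd3, a small complex I subunit, had 86.7, 70.1, 79.7, 100.1 and 75.0 CPM in MLPKO mice 1 to 5 and 68.1, 54.1, 122, 113 and 96.9 CPM in cRADΔ/Δ-MLPKO mice 1 to 5. The same 2 mice were lowest, below every MLPKO mouse, and its log2 fold change was 0.14 ± 0.20 (SE; edgeR adjusted p = 0.729). mt-Co2, the subunit that takes electrons from cytochrome c, had 207 and 170 CPM in mice 1 and 2 and 268 to 291 CPM in the other three, against 195 to 283 CPM in MLPKO (log2 fold change 0.14 ± 0.15 SE, edgeR adjusted p = 0.642). The 6 genes together held 0.306 and 0.255% of the mitochondrial protein gene counts in mice 1 and 2, 0.413 to 0.470% in the other three and 0.357 to 0.436% in MLPKO.

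mt-Atp6, the proton channel subunit of the ATP synthase, did not share this order in full: with 180 CPM, cRADΔ/Δ-MLPKO mouse 1 was above 4 of the 5 MLPKO mice. Its log2 fold change was 0.18 ± 0.13 (SE; edgeR adjusted p = 0.461), that of mt-Co3 was 0.02 ± 0.13 (SE; edgeR adjusted p = 0.946) and that of mt-Nd4l was 0.07 ± 0.15 (SE; edgeR adjusted p = 0.819). The standard errors of the 6 genes inside the stretch, 0.13 to 0.33 on the log2 scale, all exceeded those of the other 7 protein genes, 0.08 to 0.10. Of the pseudogenes on chromosome 1, cRADΔ/Δ-MLPKO mouse 2 was the lowest of its group in all 7. Mouse 1 was below mice 3 to 5 in 4 of them (Gm29216, Atp6-ps, Gm28437 and Gm28439) and not in the other three; Gm28661, the copy of mt-Co2, had 274 CPM there, 203 CPM in mouse 2 and 190 to 250 CPM in the 5 MLPKO mice. These genes also overlap one another, mt-Atp8 with mt-Atp6, mt-Nd4l with mt-Nd4 and mt-Atp6 with mt-Co3 at their ends, and reads over an overlap are of uncertain origin.

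**Figure D4:**
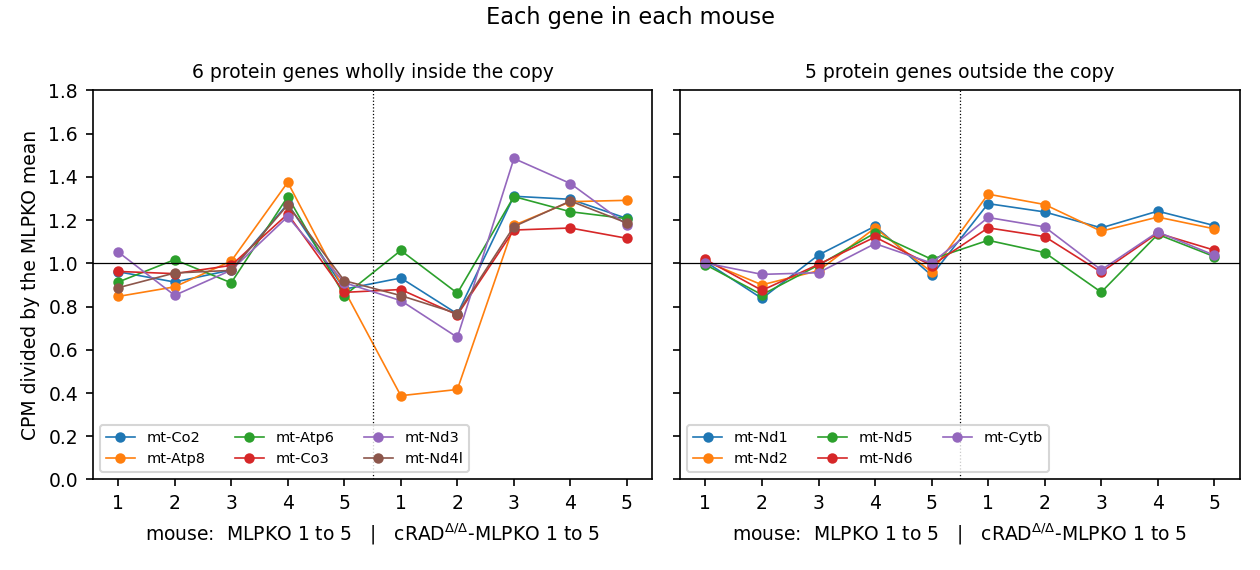
Normalized CPM of each gene in each mouse divided by the mean of the 5 MLPKO mice (linear axis from 0, line at 1), for the 6 protein genes wholly inside the stretch copied on chromosome 1 (left) and the 5 wholly outside (right). On the left cRADΔ/Δ-MLPKO mice 1 and 2 fall below the other three, most of all in mt-Atp8 (3.14 and 3.38 CPM against 9.53 to 10.5 CPM). On the right no gene has both of these mice below the rest of their group. In mt-Nd2 (22179 and 21374 CPM against 19298 to 20397 CPM) and mt-Cytb (36890 and 35558 CPM against 29502 to 34849 CPM) they stand above it.

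Transfer RNA genes had few counts. The 22 genes gathered 21105 counts over the 10 mice, of which 19648 fell on mt-Tp. The 18 genes that did not pass the filter gathered 195, with at most 9 in any mouse; 12 had at most 3 counts in every mouse, and mt-Td, mt-Tk and mt-Tt had none in any. Mature transfer RNAs are shorter than the fragments of such a library and carry no poly(A) tail, so these counts are no measure of them.

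mt-Tp lies beside the control region on the light strand, opposite to the end of the heavy-strand RNA. It had 42.1, 46.2, 50.3, 59.1 and 45.3 CPM in MLPKO mice 1 to 5 and 47.2, 47.2, 48.9, 46.9 and 43.2 CPM in cRADΔ/Δ-MLPKO mice 1 to 5. The ranges overlapped, with MLPKO mouse 4 highest, and the log2 fold change was −0.06 ± 0.08 (SE; edgeR adjusted p = 0.743). Per length, at 711 CPM per kilobase, it lay above all 6 protein genes of the copied stretch. Relative to the mitochondrial protein genes it was the called gene given above, lower in cRADΔ/Δ-MLPKO.

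The other three tested transfer RNA genes had 15 to 71 counts per mouse, so their counting error was large. mt-Tc had a log2 fold change of 0.52 ± 0.25 (SE; edgeR adjusted p = 0.255), the largest of the 19 genes, and mt-Tn 0.18 ± 0.21 (SE; edgeR adjusted p = 0.680). mt-Te had 0.925, 0.982, 1.05, 1.47 and 0.971 CPM in MLPKO mice 1 to 5 and 0.569, 0.719, 1.56, 1.22 and 1.06 CPM in cRADΔ/Δ-MLPKO mice 1 to 5. Again cRADΔ/Δ-MLPKO mice 1 and 2 were the lowest of all, although this gene lies outside the chromosome 1 copy; all of its 50-base windows occurred unchanged elsewhere in the nuclear genome. Its log2 fold change was −0.07 ± 0.28 (SE; edgeR adjusted p = 0.920), and it was 0.25 without these 2 mice. For each of these genes the heavy-strand RNA runs opposite, and the reads of both cannot be told apart without knowledge of the strand setting.

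Nuclear genes that make and handle mitochondrial RNA were compared in the same fit. Of 17 genes of mitochondrial DNA transcription and replication, 39 of RNA processing and stability and 22 that charge transfer RNAs, none had an edgeR adjusted p under 0.05; 10 of these 78 had an unadjusted p under 0.05, where 21.6% of all genes did, and DESeq2 called 1 as lower (5.84% of all genes), Trub2, a pseudouridine synthase (log2 fold change −0.31 ± 0.08 SE, edgeR adjusted p = 0.0574). Without MLPKO mouse 2, edgeR called 2, Trub2 and Ptcd3, a protein of the mitochondrial ribosome, and the share of all genes called in that fit is not given here. The median log2 fold change was 0.11, 0.02 and 0.01 in the 3 lists, against 0.01 over all genes. Polrmt, the polymerase itself, had 36.9 ± 7.02 CPM (SD, n = 5) for MLPKO against 34.9 ± 3.17 CPM (SD, n = 5) for cRADΔ/Δ-MLPKO (log2 fold change −0.08 ± 0.12 SE, edgeR adjusted p = 0.762). Tfam, which packages the mitochondrial genome and opens its promoters, had 40.8 ± 1.89 and 40.7 ± 1.94 CPM (SD, n = 5 each), a log2 fold change of −0.0044 ± 0.05 (SE; edgeR adjusted p = 0.973). Lrpprc, which stabilizes the mitochondrial messenger RNAs, had a log2 fold change of 0.07 ± 0.09 (SE; edgeR adjusted p = 0.704), and Mtpap, which adds their poly(A) tails, −0.10 ± 0.08 (SE; edgeR adjusted p = 0.503). Slirp, the partner of Lrpprc, had 0 to 2 counts per mouse and was not tested.

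Nuclear genes for subunits of the same complexes leaned the way of the mitochondrial ones. Of 77 nuclear subunit genes of complexes I, III, IV and V, 3 (3.90%) had an edgeR adjusted p under 0.05, all higher in cRADΔ/Δ-MLPKO, where 0.944% of all genes were called as higher. A log2 fold change above 0 was found for 73 of 77, against 52.1% of all genes. By complex, 2 of 36 genes of complex I, 0 of 9 of complex III, 1 of 14 of complex IV and 0 of 18 of complex V were called, with median log2 fold changes of 0.13, 0.11, 0.21 and 0.15. DESeq2 called 9 of the 77, all higher, where it called 3.81% of all genes as higher.

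Cox8a, a small subunit of complex IV, had 66.9, 56.4, 58.9, 60.4 and 63.3 CPM in MLPKO mice 1 to 5 and 78.7, 79.6, 69.7, 76.1 and 76.9 CPM in cRADΔ/Δ-MLPKO mice 1 to 5. The groups did not overlap, and the log2 fold change was 0.32 ± 0.06 (SE; edgeR adjusted p = 0.0249). Ndufa1 and Ndufv3, accessory subunits of complex I, had log2 fold changes of 0.32 ± 0.08 (SE; edgeR adjusted p = 0.0475) and 0.30 ± 0.07 (SE; edgeR adjusted p = 0.0493), also without overlap. Among all genes tested, 2.64% did not overlap with the higher values in cRADΔ/Δ-MLPKO. The count of called subunit genes depended on the setting. Apart from the main fit and DESeq2, the share of all genes called in each setting is not given here. It was 0 when both cRADΔ/Δ-MLPKO mice 1 and 2 were left out, 7 when libraries were scaled by their totals alone and 9 with DESeq2. With totals alone the median log2 fold change over all genes was also higher, 0.07. With mouse 2, 4 or 5 of cRADΔ/Δ-MLPKO left out the count was 0, and with MLPKO mouse 1, 2, 3 or 5 or cRADΔ/Δ-MLPKO mouse 3 left out it was 1.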

How the data were processed

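Total RNA with a RIN above 9 was extracted by the authors from freeze-clamped apical ventricle, and libraries were made after poly(A) selection. The deposited table holds raw counts per Ensembl gene, made by the authors per the labels with STAR and featureCounts on GRCm39; 3491 of its 60676 rows had no value. How reads with several matches and the strand were treated is not given in the sources used here. Between 73.7 and 80.3% of the counts from 1 to 20 in a library were even, so 2 counts need not be 2 fragments.

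Genes were named by GENCODE M39. The test covered genes that exceeded 10 counts in 6 or more mice, without Gm and Rik symbols, and used edgeR 4.0.16 (TMM, quasi-likelihood, Benjamini-Hochberg over 13452 genes); DESeq2 1.42.0 was an alternative. A second edgeR fit used the summed counts of the 13 mitochondrial protein genes as library size. Shares are of all counts, without a test. The mitochondrial genome was compared with nuclear chromosomes by blastn 2.17.0. Scripts were tested on simulated data. The 37 genes and all gene lists were chosen with earlier results of these data known: protein and rRNA genes are each given, transfer RNA genes each or by range, and of nuclear lists the called genes with Polrmt, Tfam, Lrpprc, Slirp and Mtpap. Labels do not say more of the replicates than 1 mouse each. Same-numbered mice are different animals, and the correlation of their deviations from the group means was −0.04 to 0.15, so numbers were not taken as pairs. Alternatives were other scalings, filters, DESeq2, a replicate block and leaving out each mouse.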

Additional observations from a re-analysis of the deposited data

Results flagged for a closer look

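Over 46 groups of 5 mice (19 genes and 4 shares in each genotype), 5 had 1 mouse farther from the rest than Dixon's critical value of 0.71 allows; chance flags about 1 in 20 groups. MLPKO mouse 4 was the highest of its group in mt-Co2 (283 CPM, the others 195 to 215 CPM), mt-Nd4l (47.5 CPM, the others 33.2 to 36.2 CPM) and mt-Te (1.47 CPM, the others 0.925 to 1.05 CPM). cRADΔ/Δ-MLPKO mouse 2 was the highest of its group in mt-Rnr2 (5000.4 CPM, the others 3527 to 3886 CPM) and in the share of all counts on the 2 rRNA genes (0.702%, the others 0.513 to 0.551%). The low mt-Atp8 values of cRADΔ/Δ-MLPKO mice 1 and 2 were not flagged, since a pair of low mice leaves no single gap.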

How the results depend on the processing

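No mitochondrial gene was called with other size factors, other filters, or without cRADΔ/Δ-MLPKO mice 1 and 2; DESeq2 called 5, and leaving out 1 mouse gave 0 to 4 calls, the 4 without MLPKO mouse 4. Relative to the mitochondrial mRNA total, the call of mt-Tp was lost (0 calls) with mt-Co1 or all genes reaching into the chromosome 1 copy left out of the library size and without cRADΔ/Δ-MLPKO mice 1 and 2, and leaving out 1 mouse gave 0 or 1 calls; the cause was not tested. Among nuclear genes of mitochondrial RNA, DESeq2 called 1, and leaving out 1 mouse gave 0 to 2. Of nuclear subunit genes, 1 (Cox8a) was called with RLE size factors, without the count filter and with Gm and Rik genes kept, 7 with library totals alone, 9 by DESeq2, 0 without cRADΔ/Δ-MLPKO mice 1 and 2, and 0 to 4 leaving out 1 mouse. The difference in mitochondrial share, 3.70 percentage points, was 3.06 to 4.43 leaving out 1 mouse and 1.63 for the 5 protein genes outside the chromosome 1 copy. The settings on cRADΔ/Δ-MLPKO mice 1 and 2 and on those 5 genes were chosen after seeing the data. Apart from the main fits and DESeq2, the share of all genes called in each setting is not given here.

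Numbers did not pair the mice: same-numbered deviations correlated at −0.04 to 0.15. With a replicate block, 0 mitochondrial genes were called, mt-Tp was lost in the relative fit (0 calls), and 1 nuclear subunit gene (Cox8a) was called.

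Signs of small log2 fold changes turned. Without cRADΔ/Δ-MLPKO mice 1 and 2, mt-Atp8 became 0.32, mt-Te 0.25, Polrmt 0.0049 and Tfam 0.0033; with library totals alone Tfam became 0.053. Leaving out 1 mouse gave a range of −0.29 to 0.059 for mt-Atp8, −0.028 to 0.11 for mt-Co3, −0.0037 to 0.18 for mt-Nd4l, −0.25 to 0.078 for mt-Te, −0.11 to 0.022 for mt-Tp and −0.030 to 0.015 for Tfam. The 15 to 71 counts per mouse limit mt-Tn, mt-Tc and mt-Te.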
